A study of Mus musculus with 12 samples.

Results

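This account follows 10 genes of the p53 and cell-stress pathway in mouse hearts that lack both corticosteroid receptors in their cardiomyocytes: Gdf15, Cdkn1a, Rprm, Mdm2, Ccng1, Trp53inp1, Bax, Sesn2, Gadd45a and Trp53. They were picked by name, as every non-control probe whose gene name on the array, or an older synonym, is one of these 10, out of 18258 genes measured. Gdf15, Cdkn1a and Rprm were on the list because their levels were already known to be higher in the knockout hearts of this same series. Their genotype differences are therefore given as descriptions without a test, and the question put to the data is whether the other 7 genes and further p53 targets moved with them. The array carried 16 probes for the 10 genes, and all 16 were well above background on every array, so no gene was lost to the filter on dim probes.

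RNA came from whole hearts of male C57BL/6 mice. Both genotypes carried floxed alleles of the glucocorticoid receptor (GR) and the mineralocorticoid receptor (MR). In cardioGRMRdKO mice, called knockout here, both were recombined by an αMHC-Cre transgene, whose promoter works in heart muscle cells. Their littermate controls, called dflox, had no Cre. Each genotype was studied at 1 and 2 months of age with 3 mice per group, so there were 4 groups and 12 hearts. No hearts with Cre and intact receptor genes were compared here, so receptor loss and Cre itself cannot be told apart, and in bulk tissue a change in the number of cells of a type and a change in RNA per cell cannot be told apart either.

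The transcription factor p53, encoded by Trp53, is held low by the ubiquitin ligase Mdm2 and is stabilised by DNA damage and other stress. It then binds pairs of decamer motifs near its target genes and raises a programme that stops the cell cycle (Cdkn1a, Rprm, Gadd45a, Ccng1), favours cell death (Bax), handles oxidative and nutrient stress (Sesn2, Trp53inp1) and feeds back on p53 (Mdm2). Several of these genes answer to other signals too: Gdf15, Sesn2 and Gadd45a are also induced by the integrated stress response through the factors ATF4 and CHOP. GDF15 is a secreted cytokine of the TGF-β superfamily, made by stressed heart muscle among other tissues, which reduces appetite through a receptor in the brainstem.

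The promoters of 5 of these genes are shown to set the 3 genes chosen for their genotype difference beside a gene that passed the test (Gadd45a) and a canonical target that did not (Mdm2). Each is the 250 bases before the first listed transcription start in RefSeq (build GRCm38.p6), written 5′ to 3′ on the gene's strand, with each match to the p53 decamer in capitals.
Gdf15, chr8:70632457-70632706, minus strand: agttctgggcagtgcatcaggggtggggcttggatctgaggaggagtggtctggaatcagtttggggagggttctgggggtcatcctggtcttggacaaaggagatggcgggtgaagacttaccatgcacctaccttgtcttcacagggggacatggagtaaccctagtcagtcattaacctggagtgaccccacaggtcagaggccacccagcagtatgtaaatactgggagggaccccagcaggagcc
Cdkn1a, chr17:29090729-29090978, plus strand: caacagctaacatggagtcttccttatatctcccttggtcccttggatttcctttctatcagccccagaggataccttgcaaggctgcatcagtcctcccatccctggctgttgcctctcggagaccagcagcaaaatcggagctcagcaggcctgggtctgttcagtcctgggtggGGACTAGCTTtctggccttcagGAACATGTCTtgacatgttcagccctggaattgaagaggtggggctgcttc
Rprm, chr2:54085553-54085802, minus strand: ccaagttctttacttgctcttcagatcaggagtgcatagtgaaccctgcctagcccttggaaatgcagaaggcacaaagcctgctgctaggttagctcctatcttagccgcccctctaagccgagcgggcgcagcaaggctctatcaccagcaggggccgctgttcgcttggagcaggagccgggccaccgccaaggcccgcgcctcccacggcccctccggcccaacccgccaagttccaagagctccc
Gadd45a, chr6:67037408-67037657, minus strand: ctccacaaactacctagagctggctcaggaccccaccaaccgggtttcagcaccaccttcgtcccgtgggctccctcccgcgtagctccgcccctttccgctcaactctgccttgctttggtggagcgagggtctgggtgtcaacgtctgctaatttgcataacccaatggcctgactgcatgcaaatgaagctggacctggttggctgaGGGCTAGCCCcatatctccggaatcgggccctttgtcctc
Mdm2, chr10:117710759-117711008, minus strand: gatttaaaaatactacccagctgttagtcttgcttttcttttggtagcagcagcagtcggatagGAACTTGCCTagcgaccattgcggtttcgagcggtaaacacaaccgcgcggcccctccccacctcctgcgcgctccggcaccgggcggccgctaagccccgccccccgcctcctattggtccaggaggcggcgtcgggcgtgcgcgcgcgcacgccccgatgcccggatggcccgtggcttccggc
RefSeq entries were matched for 9 of the 10 genes, and Trp53inp1 had none. A decamer match, which reads the same on both strands, was found for 6 of the 9: Cdkn1a, Mdm2, Ccng1, Bax, Gadd45a and Trp53. Counted by window, 6 of 11 held one, since Gdf15 and Cdkn1a have 2 listed starts each. Among all 32851 promoters of the same length, 7.13% held one. Cdkn1a alone had a pair of decamers spaced by 0 to 13 bases, GGACTAGCTT starting 73 bases and GAACATGTCT starting 51 bases before the start, an arrangement found in 0.0639% of promoters. The pair lies before the first listed start of Cdkn1a, and the window of its second listed start held no decamer. No decamer match was found in any window of Gdf15, Rprm or Sesn2. The CHOP- and ATF4-type letters TGATGNAAT, searched on both strands and present in 0.816% of promoters, and the glucocorticoid receptor's palindrome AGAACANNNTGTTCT, present in 0.00913%, were found in no window of the 9 genes. A match is a description of the letters, not of binding, and sites further away were not searched.

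The arrays measured 43379 transcript spots each, and 63.7% to 71.9% of them were well above background. All values below are log2 levels relative to the array's 75th percentile, so that 0 is the level of that percentile, and values of different genes are not compared with each other because each probe has its own response. Arrays lay on 3 slides of 4. Both genotypes shared slides 1 and 2 at 1 month and slides 1 and 3 at 2 months. Within a slide, each genotype difference set 1 knockout heart against 1 or 2 dflox hearts of the same age. Fits without slide 3 kept only replicate 1 of the 2-month dflox hearts. Their 2-month, averaged and between-age values rest on that heart. At 1 month all dflox arrays lay at the outer and all knockout arrays at the inner places of a slide, and the effects of place and genotype at that age cannot be told apart. In fits with place as a term, the effect of place was therefore estimated from the 2-month hearts. Markers of cardiomyocytes (10 of 10 measured) were bright in every heart, with sums of 1530 to 2310 on the linear scale over the 8 that had a value in all hearts. The GR gene Nr3c1 checks the labels: every knockout heart measured lay below every dflox heart (1 spot in each 1-month group was left out as an outlier), with a log2 difference of −0.73 at 1 month (limma, adjusted p = 0.119) and −1.10 at 2 months (adjusted p = 0.00565). The 1 probe used for the MR gene Nr3c2 gave 0.06 and −0.46, and neither passed the test. The labels do not give the deleted exons, so it is not known whether these probes lie in the deleted part.

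Gdf15 was higher in knockout than in dflox hearts at both ages, by 3.65-fold at 1 month and 8.29-fold at 2 months. On its 1 probe (chr8:69084712-69084771, minus strand, mm7), the level at 1 month was −2.10, −1.74 and −1.99 in dflox hearts and −0.11, 0.31 and −0.41 in knockout hearts. At 2 months it was −1.52, −1.13 and −1.50 in dflox hearts and 1.52, 1.88 and 1.60 in knockout hearts. The 4 groups do not overlap: the 2-month knockout hearts are all highest, the 1-month knockout hearts come next, and the 1-month dflox hearts are lowest. Group means were −1.94 ± 0.181, −0.07 ± 0.360, −1.38 ± 0.218 and 1.67 ± 0.188 (SD, n = 3 each, in the order 1-month dflox, 1-month knockout, 2-month dflox, 2-month knockout). The log2 difference between genotypes was 1.87 (SE 0.194) at 1 month and 3.05 (SE 0.194) at 2 months. Within slides 1 and 2 it was 2.40 and 1.45 at 1 month, and within slides 1 and 3 it was 3.12 and 3.19 at 2 months.

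Cdkn1a, which encodes p21, the inhibitor of cyclin-dependent kinases that mediates p53's arrest of the cell cycle, was 1.80-fold higher in knockout hearts at 1 month and 2.94-fold higher at 2 months. Its probe (chr17:27293819-27293878, plus strand, mm7) is printed at 10 spots on each array. The averaged level at 1 month was −0.43, −0.03 and −0.34 in dflox and 0.59, 0.73 and 0.42 in knockout hearts. At 2 months it was −0.69, −0.50 and −0.76 in dflox and 0.46, 0.98 and 1.29 in knockout hearts. Every knockout heart was above every dflox heart, while the knockout hearts of the 2 ages overlapped. The difference was 0.85 (SE 0.198) at 1 month and 1.56 (SE 0.198) at 2 months. Within slides it was 1.16 and 0.61 at 1 month and 1.97 and 1.60 at 2 months, each from 1 knockout heart against 1 or 2 dflox hearts.

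Rprm encodes Reprimo, a p53-induced protein that holds cells before mitosis. On its brighter probe (chr2:54084945-54085004, minus strand, mm7) the level at 1 month was −3.85, −4.32 and −4.36 in dflox and −2.18, −2.38 and −2.79 in knockout hearts. At 2 months it was −4.58, −3.55 and −3.55 in dflox and −0.89, −1.06 and −1.54 in knockout hearts. As with Gdf15, the 2-month knockout hearts were all highest and the 1-month knockout hearts next, while dflox hearts of both ages overlapped at the bottom. The difference was 1.73 (SE 0.300, 3.31-fold) at 1 month and 2.73 (SE 0.300, 6.63-fold) at 2 months. The other probe (chr2:54085145-54085206) gave 1.88 and 3.17. With the normexp background correction in place of the scanner's own, the brighter probe gave 0.85 and 1.56.

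**Figure D1:**
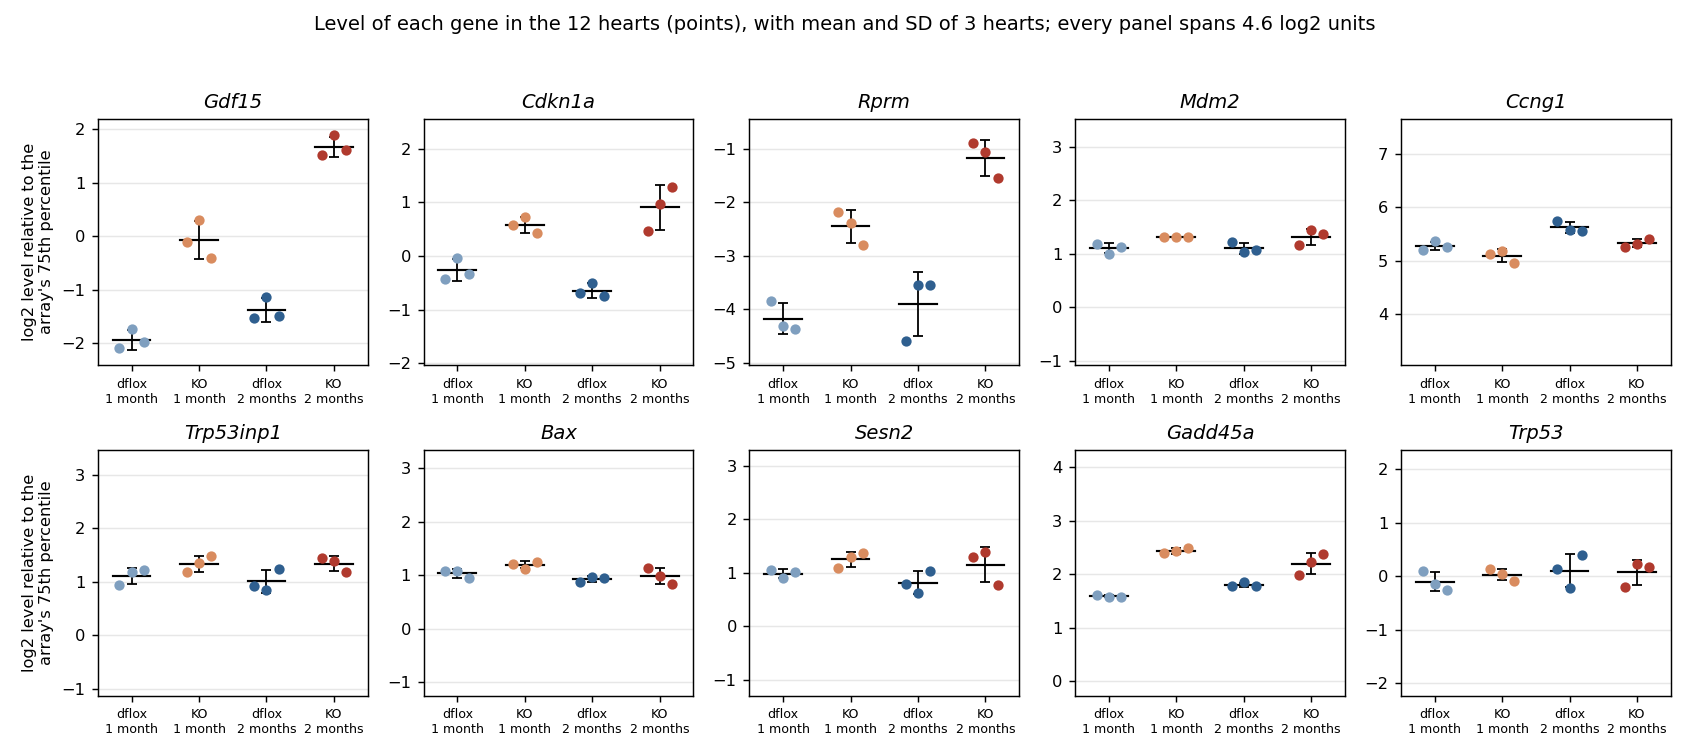
Log2 level of each of the 10 genes (y axis, relative to the array's 75th percentile) in the 12 hearts, by group on the x axis (KO, cardioGRMRdKO). Points are hearts, and black lines give the mean and SD of 3 hearts. Gdf15 rises from −1.94 in 1-month dflox to 1.67 in 2-month KO hearts, Cdkn1a and Rprm separate by genotype at both ages, Gadd45a separates most at 1 month, and the other 6 panels are close to flat on the same span.

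Of the 7 other genes, Gadd45a was the 1 that passed the test between genotypes. Gadd45a encodes a small stress sensor that acts on cell-cycle kinases, DNA repair and MAP kinase signalling. Its level (chr6:67017167-67017226, minus strand, mm7) at 1 month was 1.60, 1.57 and 1.57 in dflox and 2.39, 2.42 and 2.48 in knockout hearts. At 2 months it was 1.78, 1.85 and 1.78 in dflox and 1.99, 2.22 and 2.38 in knockout hearts. Knockout hearts were above dflox hearts at both ages without overlap, but the 2-month knockout hearts all lay below the 1-month ones. It rose by 0.85 at 1 month (SE 0.105, 1.80-fold, limma adjusted p = 0.00463) and by 0.62 averaged over the ages (SE 0.0745, adjusted p = 0.001). At 2 months the difference of 0.39 (SE 0.105, 1.31-fold) did not pass (adjusted p = 0.104). Within slides the difference was 0.82 and 0.91 at 1 month and 0.60 and 0.40 at 2 months.

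The Gadd45a call at 1 month was lost with place on the slide as a term (log2 difference 1.00, adjusted p = 0.0569), with a score of airway markers as a covariate (0.81, adjusted p = 0.0877) and without the 4 arrays of slide 3 (0.87, adjusted p = 0.0599). Without slide 3 the averaged call was lost as well (0.64, adjusted p = 0.0719). Leaving out knockout 2-month replicate 1 brought the 2-month difference past the threshold (0.49, adjusted p = 0.0447). Place and airway markers each separated the genotypes completely at 1 month, so the fits with these terms cannot tell them from genotype at that age.

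Mdm2 and Ccng1 are the feedback members of the group, since MDM2 degrades p53 and cyclin G1 acts with the phosphatase PP2A on MDM2. On the brighter Mdm2 probe (chr10:117200593-117200652) the 1-month level was 1.18, 1.01 and 1.13 in dflox and 1.32, 1.31 and 1.31 in knockout hearts, and the 2-month level 1.23, 1.03 and 1.07 against 1.16, 1.45 and 1.36. Knockout hearts lay slightly above at 1 month and overlapped dflox at 2 months. The differences of 0.21 (95% interval −0.03 to 0.44, adjusted p = 0.642) and 0.21 (−0.02 to 0.45, adjusted p = 0.352) did not pass limma's test, and the other probe gave 0.02 and 0.18. Ccng1 (chr11:40691782-40691841) had the opposite sign. It stood at 5.21, 5.37 and 5.27 in dflox and 5.13, 5.19 and 4.96 in knockout hearts at 1 month, and at 5.75, 5.57 and 5.55 against 5.26, 5.32 and 5.41 at 2 months. All knockout hearts lay below all dflox hearts of their age, with differences of −0.19 (−0.41 to 0.04, adjusted p = 0.694) and −0.29 (−0.52 to −0.07, adjusted p = 0.213) that did not pass. The other Ccng1 probe gave −0.10 and −0.33.

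Bax encodes the protein that opens the outer mitochondrial membrane in apoptosis. On its probe (chr7:41641827-41641982, 10 spots per array) the level at 1 month was 1.09, 1.08 and 0.94 in dflox and 1.21, 1.12 and 1.25 in knockout hearts, and at 2 months 0.87, 0.97 and 0.95 against 1.13, 0.99 and 0.85. The groups separated narrowly at 1 month and overlapped at 2 months. Neither the difference of 0.16 at 1 month (95% interval −0.06 to 0.38, adjusted p = 0.790) nor that of 0.06 at 2 months (−0.17 to 0.28, adjusted p = 0.781) passed limma's test.

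Trp53inp1, a p53-induced nuclear protein that takes part in autophagy and the antioxidant response, was measured best at chr4:11101174-11101233. Its level was 0.94, 1.19 and 1.22 in dflox and 1.18, 1.35 and 1.49 in knockout hearts at 1 month, and 0.93, 0.86 and 1.25 against 1.44, 1.40 and 1.19 at 2 months. The genotypes overlapped at both ages, with differences of 0.23 (95% interval −0.09 to 0.54, adjusted p = 0.779) and 0.33 (0.02 to 0.64, adjusted p = 0.292, limma). Sesn2, a stress-induced inhibitor of mTORC1, was measured best at chr4:131870492-131870551. It stood at 1.05, 0.89 and 1.00 in dflox and 1.09, 1.29 and 1.36 in knockout hearts at 1 month, and at 0.79, 0.61 and 1.03 against 1.29, 1.38 and 0.78 at 2 months. The genotypes separated narrowly at 1 month, while knockout replicate 3 lay among the dflox hearts at 2 months. The Sesn2 differences of 0.27 (−0.11 to 0.64, adjusted p = 0.791) and 0.34 (−0.04 to 0.71, adjusted p = 0.364) did not pass. Its probes differed in sign at 2 months, where the dimmer one gave −0.15.

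Trp53 itself, whose product is regulated mainly as a protein, had a level (chr11:69662031-69662089) of 0.10, −0.15 and −0.26 in dflox and 0.14, 0.04 and −0.08 in knockout hearts at 1 month, and of 0.14, −0.22 and 0.39 against −0.19, 0.23 and 0.18 at 2 months. The genotypes overlapped at both ages. The differences were 0.13 (95% interval −0.26 to 0.52, limma adjusted p = 0.997) and −0.03 (−0.42 to 0.36, adjusted p = 0.935), and the 2-month sign turned under 8 of 28 alternatives, among them median scaling (0.08) and normexp (0.15), with values up to 0.27. Within slides, the 6 genes from Mdm2 to Trp53 that did not pass ran from −0.35 to 0.42 at 1 month and from −0.33 to 0.56 at 2 months.

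**Figure D2:**
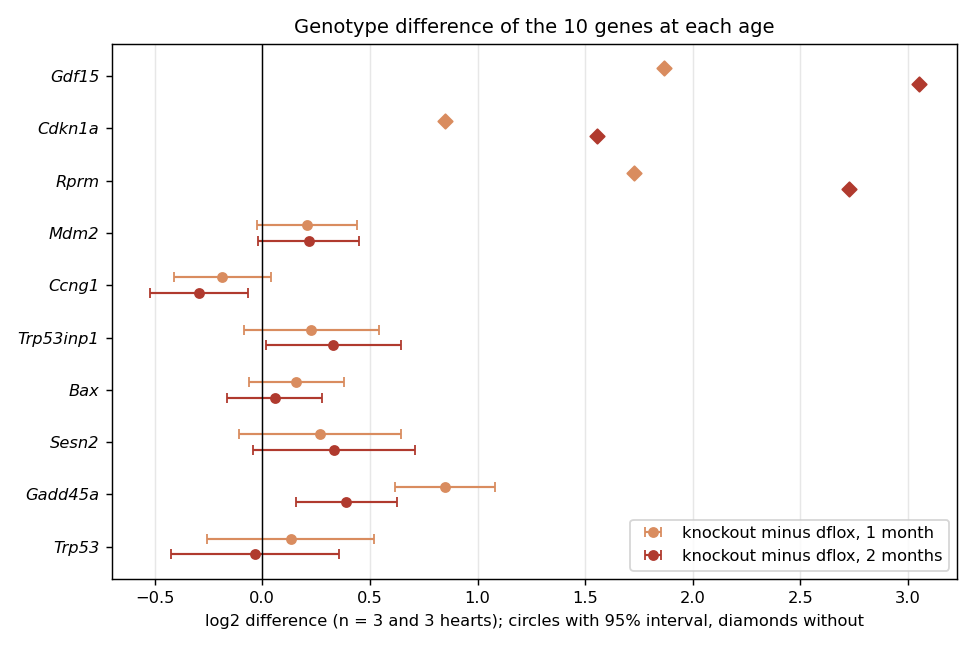
Log2 difference, knockout minus dflox, for each gene at 1 month (orange) and 2 months (red), n = 3 and 3 hearts. Circles carry limma's 95% interval, and diamonds mark the 3 genes chosen for their difference, shown without an interval. Gdf15, Rprm and Cdkn1a lie between 0.85 and 3.05, Gadd45a lies at 0.85 and 0.39, and the other 6 lie between −0.29 and 0.34.

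Counted together, 1 of the 7 tested genes passed as higher at 1 month, 0 at 2 months and 1 for the average, and 0 passed as lower in any of these comparisons. Over all 18258 genes, limma called 0.438% higher at 1 month, 1.1% at 2 months and 2.25% for the average, and 0.98%, 2.31% and 4.5% in either direction. The difference was above 0 for 6 of the 7 at 1 month and 5 of the 7 at 2 months, with medians of 0.21 and 0.22. The medians of all genes were −0.00 and −0.10, and 49.7% and 37.0% of all genes lay above 0. The hearts of the 2 genotypes did not overlap for 5 of the 7 at 1 month and 2 of the 7 at 2 months, against 18.6% and 17.6% of all genes in either direction and 8.98% and 6.59% with knockout hearts higher. Both counts of the 7 are in either direction and include Ccng1, whose knockout hearts were lower. With 3 mice per group and 7 genes these counts describe the genes and give no test of them as a set.

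Between 1 and 2 months the mean of Gdf15 was higher at the later age in both genotypes. That of Cdkn1a was lower in dflox and higher in knockout hearts. The Rprm values were higher at the later age in knockout hearts, while dflox hearts of the 2 ages overlapped. In dflox hearts the dimmer Rprm probe gave 0.02, and slide 1, with 1 heart against 1, gave −0.735 on the brighter probe. The sign of this Rprm difference turned under 3 of 27 alternatives. The age difference in dflox hearts was not what the 3 genes were chosen for. It shares its hearts with the genotype comparisons, however, so its test is not independent of the choice. In dflox hearts the differences between 2 months and 1 month were 0.56 for Gdf15 (SE 0.194, limma adjusted p = 0.243), −0.38 for Cdkn1a (SE 0.198, adjusted p = 0.422) and 0.28 for Rprm (SE 0.300, adjusted p = 0.682). None of the 10 genes passed there, where 0.553% of all genes did (0.307% higher, 0.246% lower). Hearts of the 2 ages did not overlap for 4 of the 10 in dflox hearts (20% of all genes, 11.4% higher at 2 months). Without the 3 chosen genes this held for 2 of the 7 in dflox hearts. In knockout hearts it held for 2 of the 7 as well (18% of all genes, 7.2% higher). These counts are in either direction and include Cdkn1a in dflox and Gadd45a in knockout hearts, which were lower at 2 months. In knockout hearts Gdf15 was 1.74 higher at 2 months than at 1 month (3.34-fold), Rprm 1.28 (2.43-fold) and Cdkn1a 0.33 (1.26-fold), given as descriptions. Of the 7 others, 0 passed in knockout hearts, where 0.378% of all genes did. The genotype difference was wider at 2 months by 1.18 for Gdf15, 1.00 for Rprm and 0.71 for Cdkn1a, and narrower by 0.46 for Gadd45a (−0.46, SE 0.149, adjusted p = 0.934). Limma called 0 genes of 18258 for this difference between ages, although 644 had an unadjusted p under 0.05. Without slide 3, where replicate 1 was the only 2-month dflox heart, the Rprm value became 1.78.

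Further p53 targets were counted from a list of 27, of which 25 were measured. For this and the lists below, 0.438%, 1.1% and 2.25% of all genes were called higher at 1 month, 2 months and for the average. The shares called lower were 0.542%, 1.21% and 2.25%. Limma called 1 higher at 1 month and 2 higher at 2 months and for the average, and 0 lower in any of them, with list medians of 0.05, 0.10 and 0.06 against −0.00, −0.10 and −0.06 over all genes. The called genes were Eda2r and Phlda3. Eda2r encodes the ectodysplasin A2 receptor, a p53-induced member of the TNF receptor family. Its level was −2.68, −2.81 and −3.10 in dflox and −1.58, −1.60 and −1.85 in knockout hearts at 1 month, and −3.08, −3.43 and −3.51 against −2.17, −1.89 and −2.11 at 2 months. Every knockout heart was above every dflox heart, and Eda2r rose by 1.19 (SE 0.156, adjusted p = 0.00552) and 1.29 (SE 0.156, adjusted p = 0.0022). A dimmer Eda2r probe differed, with 0.65 (SE 0.501) and −0.57 (SE 0.501), neither of which passed, and the mean of both probes lost all 3 calls. With the brighter probe alone, further alternatives ended the call at 1 month (airway score, adjusted p = 0.121, and place, 0.253) and at 2 months (normexp, 0.0841, without slide 3, 0.155, and without the hearts with high airway markers, 0.101).

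Phlda3, a p53-induced repressor of AKT signalling, stood at 3.75, 3.79 and 3.68 in dflox and 4.08, 4.29 and 4.23 in knockout hearts at 1 month, and at 3.29, 3.23 and 3.86 against 4.38, 4.25 and 4.45 at 2 months. Every knockout heart was above every dflox heart, and dflox 2-month replicate 3 was the control closest to the knockout hearts. The rise of 0.90 at 2 months passed (SE 0.157, limma adjusted p = 0.0153) and the difference of 0.46 at 1 month did not (adjusted p = 0.321). The 2-month call was lost under 6 of 26 alternatives, with adjusted p up to 0.182. On the brightest probe, the other 23 measured targets did not pass in any genotype comparison. Among them were Polk, a translesion DNA polymerase (0.20 and 0.46 at the 2 ages), the death genes Bbc3 (0.34 and 0.16) and Pmaip1 (0.20 and 0.27), Ppm1d, a phosphatase that ends the p53 response (−0.02 and 0.13), and Zmat3, an RNA-binding target (0.11 and 0.19). Aen, which encodes a p53-induced nuclease of apoptosis, had 3 probes that did not call alike. The brightest gave 0.49 and 0.19 and did not pass (0.34 for the average, limma adjusted p = 0.111), but its position in the file headers is on chromosome 4, while RefSeq places Aen on chromosome 7, so its identity is uncertain. The other Aen probes lie on chromosome 7 (chr7:74771219-74771278 and chr7:74765528-74765587, mm7). The first gave 0.49 and 0.40 and passed for the average (0.44, SE 0.0679, adjusted p over all probes = 0.00465), and the dim second gave 0.34 and 0.36 and did not pass (average 0.35, adjusted p = 0.117). Aen also passed for the average with the mean of all probes (adjusted p = 0.0159), with quantile normalization (adjusted p = 0.00994) and without knockout 2-month replicate 3 (adjusted p = 0.0323).

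Genes that regulate p53 or act with it included 13 measured of 15 listed. Limma called 0 at 1 month, 1 higher at 2 months and 0 for the average. Prkdc, the catalytic subunit of the DNA-dependent protein kinase, was at −1.65, −1.64 and −1.64 in dflox and −1.20, −1.34 and −1.15 in knockout hearts at 2 months, and rose by 0.42 (SE 0.0906, adjusted p = 0.0439), a call lost under 22 of 26 alternatives. For the average (0.26, adjusted p = 0.0513) it passed under 4 of 25. Mdm4, the partner of MDM2, gave −0.14 and −0.10, and Atm, the kinase that signals DNA breaks, 0.06 and 0.17. The checkpoint kinase gene Chek1 gave 0.23 and 0.56, and Hipk2, a kinase that phosphorylates p53, −0.22 and −0.44. Among 11 measured paralogs of the 10 genes of 12 listed, such as Gadd45b, Gadd45g, Cdkn1b, Rprml and Sesn1, 0 passed in any genotype comparison. Cdkn1b, the paralog of Cdkn1a, gave −0.12 and −0.07, and Gadd45b gave −0.25 and −0.10. Trp73, a relative of Trp53, gave −0.02 and −0.53, while Sesn1 gave −0.12 and −0.23 and Sesn3 0.23 and 0.19.

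In the BCL2 family, which decides whether mitochondria release cytochrome c, 16 of 18 genes were measured, 2 of them (Bbc3 and Pmaip1) also in the p53 target list. Limma called 0 at 1 month, 1 higher at 2 months, and 1 higher and 1 lower for the average. Bcl2, the founding inhibitor of apoptosis, stood at 0.13, −0.03 and −0.06 in dflox and 0.71, 0.69 and 0.79 in knockout hearts at 1 month, and at −0.40, 0.07 and 0.08 against 1.45, 1.48 and 0.94 at 2 months. All knockout hearts were above all dflox hearts. Bcl2 rose by 1.37 at 2 months (SE 0.169, adjusted p = 0.00252), while 0.71 at 1 month did not pass (adjusted p = 0.102). The 2-month call was lost with only the 2-month groups fitted (adjusted p = 0.0753) and without the hearts with high airway markers (adjusted p = 0.0672), and at 1 month Bcl2 passed with only the 1-month groups fitted (adjusted p = 0.0304) and without knockout 2-month replicate 3 (adjusted p = 0.0386). Its other probes gave 1.16 and 0.05 at 2 months, the second of them dim. Bcl2l11, which encodes the death-promoting protein BIM, stood at 1.50, 1.45 and 1.09 in dflox and 0.75, 0.66 and 0.49 in knockout hearts at 1 month, and at 1.14, 1.03 and 1.17 against 0.84, 0.52 and 0.30 at 2 months. Here every knockout heart was below every dflox heart, and the average fell by 0.64 (SE 0.112, limma adjusted p = 0.00904). That call was lost without slide 3 (adjusted p = 0.164) and without the hearts with high airway markers (adjusted p = 0.0518). At the single ages Bcl2l11 did not pass (adjusted p = 0.0779 and 0.120), but it did with the mean of its probes (−0.68, adjusted p = 0.0134, and −0.65, adjusted p = 0.00991), at 1 month without knockout 2-month replicate 3 (adjusted p = 0.0477), and on its dimmer probe at 2 months (−0.74, adjusted p over all probes = 0.0172). The death-promoting genes Bik (0.49 and 0.13) and Bmf (−0.24 and −0.33) did not pass.

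**Figure D3:**
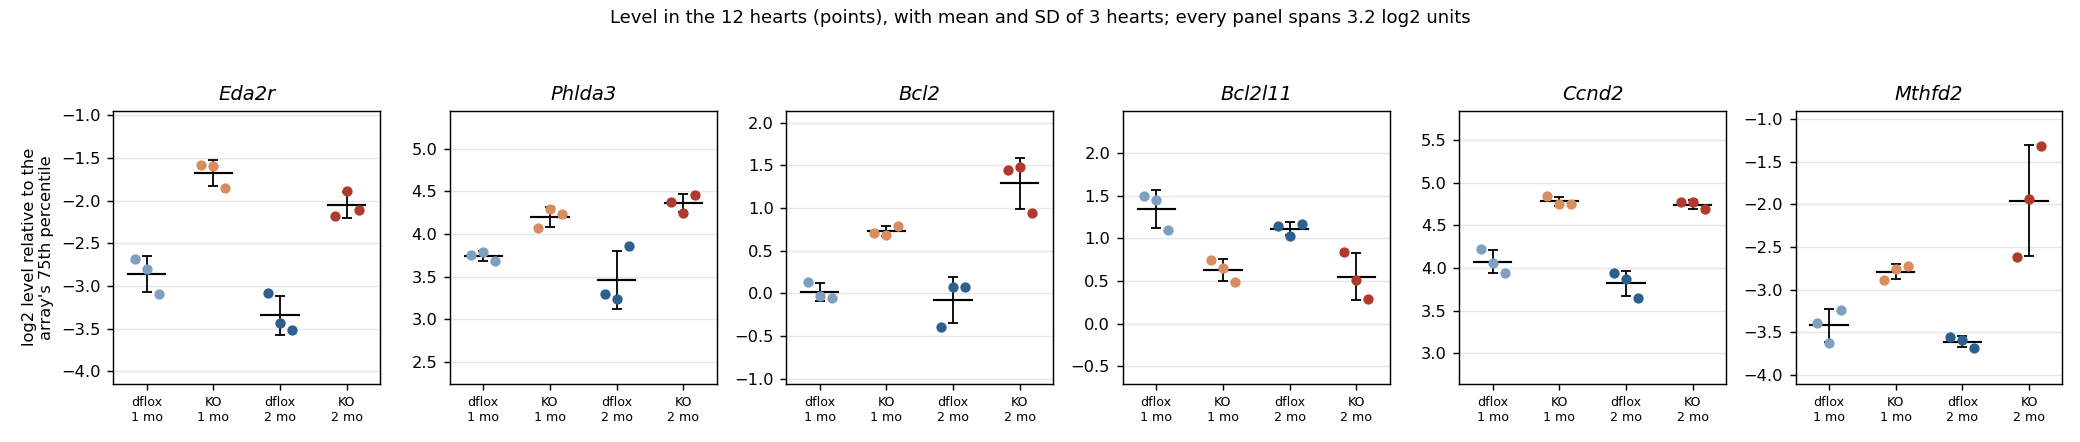
Log2 level (y axis, relative to the array's 75th percentile) of 6 genes called from the lists in the 12 hearts, by group on the x axis (mo, months; KO, cardioGRMRdKO). Points are hearts, and lines give the mean and SD of 3 hearts. In each panel the genotypes separate at both ages, with Bcl2l11 lower and the others higher in KO hearts, and the 2-month KO hearts of Mthfd2 spread from −2.62 to −1.32.

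Cdkn1a acts on cyclin-dependent kinases, and of 21 measured cyclins, kinases and inhibitors (22 listed) limma called 1 higher at each age and for the average, and 0 lower. Ccnd2, cyclin D2, which drives cells from G1 into S phase, stood at 4.22, 4.06 and 3.94 in dflox and 4.84, 4.75 and 4.75 in knockout hearts at 1 month, and at 3.94, 3.87 and 3.65 against 4.77, 4.77 and 4.69 at 2 months. It rose by 0.71 (SE 0.108, adjusted p = 0.0132) and 0.92 (SE 0.108, adjusted p = 0.0019), calls lost under 10 and 3 of 26 alternatives. Its 3 probes gave 0.66 to 0.79 at 1 month and 0.75 to 0.92 at 2 months. E2f1, a cell-cycle factor, gave 0.08 and 0.93, and Cdkn2c, another inhibitor, −0.40 and −0.22, none of which passed, although Cdkn2c did for the average without knockout 2-month replicate 3 (adjusted p = 0.0266). Cdk6, a partner kinase of D cyclins, differed by −0.00 and −0.12 between genotypes. Between ages it fell by 0.80 in knockout hearts (SE 0.128, limma adjusted p = 0.0355), and the difference in dflox hearts was −0.68 (SE 0.128, adjusted p = 0.051).

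The integrated stress response, the other route to Gdf15, was read from 27 measured genes of 29. Limma called 0 at 1 month, 2 higher at 2 months, and 2 higher and 1 lower for the average. The list medians were −0.04, 0.03 and −0.01, against −0.00, −0.10 and −0.06 over all genes. The higher genes were Mthfd2 and Aldh1l2, enzymes of mitochondrial folate metabolism. Mthfd2 stood at −3.39, −3.62 and −3.24 in dflox and −2.88, −2.76 and −2.73 in knockout hearts at 1 month, and at −3.55, −3.59 and −3.69 against −2.62, −1.94 and −1.32 at 2 months. The 2-month knockout hearts were higher but far apart from each other, and Mthfd2 rose by 1.65 there (SE 0.259, limma adjusted p = 0.00877) after 0.63 at 1 month (adjusted p = 0.457). It did not pass at 2 months without slide 3 (adjusted p = 0.280) or with only the 2-month groups fitted (adjusted p = 0.128). Aldh1l2 rose by 0.79 at 2 months (adjusted p = 0.0317), a call lost under 19 of 26 alternatives. The gene called lower was Cebpb, a transcription factor of this response and of inflammation, which fell by 0.65 for the average (SE 0.110, limma adjusted p = 0.00726), a call lost with place as a term (adjusted p = 0.198) and without slide 3 (adjusted p = 0.0979). At the single ages (−0.73 and −0.58) Cebpb did not pass, but it did under 4 of 26 alternatives at 1 month and 1 of 26 at 2 months. Of the other 24 genes none passed between genotypes. Among these, Atf4 gave 0.07 and 0.11 at the 2 ages, Ddit3, which encodes CHOP, 0.47 and 0.03, Trib3 −0.12 and 0.03, Asns −0.19 and 0.23, Herpud1 −0.27 and −0.50, and Chac1 −0.83 and −0.17.

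Gdf15 is a ligand of the TGF-β superfamily. Of 21 listed relatives and receptor genes, 17 were measured, and limma called 0 in the 3 genotype comparisons. Tgfb1 gave 0.10 and 0.13, Inhba, an activin subunit, −0.32 and −0.03, the inhibin subunit Inha 0.20 and 0.21, Bmp7 −0.30 and −0.98, and Mstn, which encodes myostatin, −0.14 and −0.98. Gfral and Ret, which encode the receptor of GDF15 and its co-receptor, were among the 4 not measured.

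**Figure D4:**
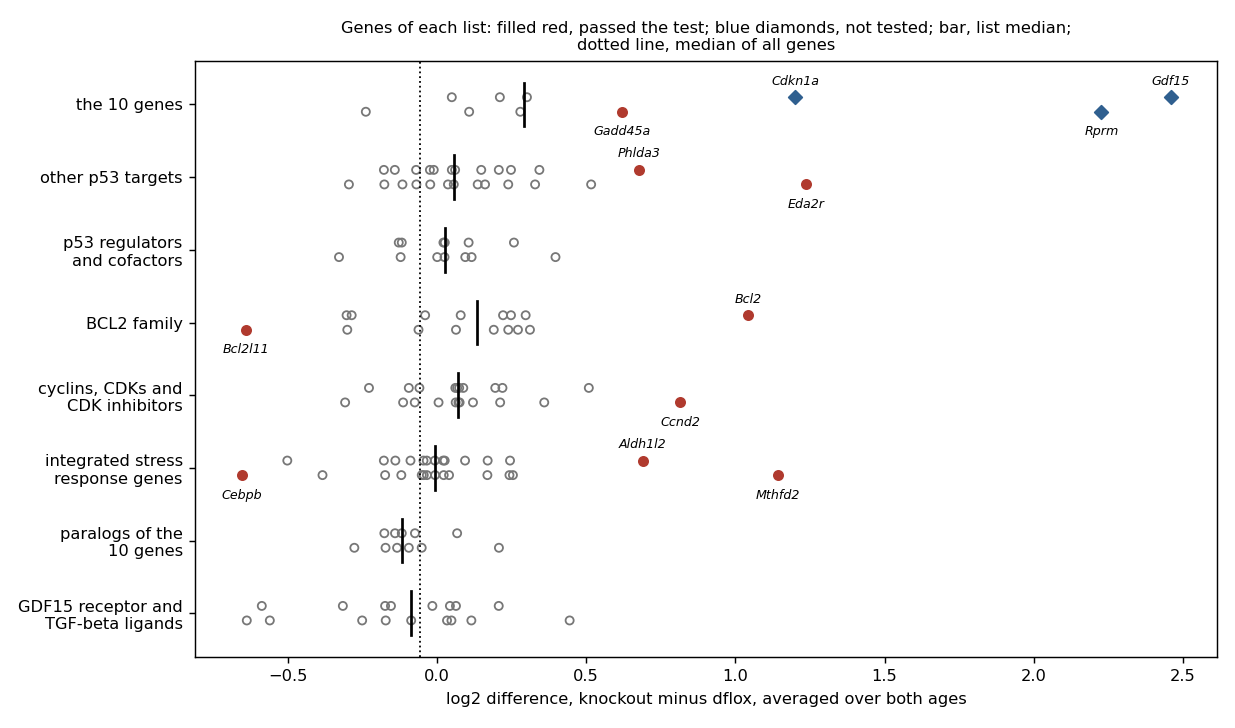
Log2 difference, knockout minus dflox averaged over the ages (x axis), for the genes of each list (rows). Open circles did not pass limma's test, filled red circles did, blue diamonds were not tested, the black bar is the list's median and the dotted line the median of all genes, −0.06. Most genes of every list lie within 0.5 of zero, and Gdf15 at 2.46 and Rprm at 2.23 lie to the right of every other gene shown.

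The genes whose pattern over the 12 hearts was most like that of Gdf15, by the root mean square (RMS) difference between mean-centred log2 levels among 17781 genes, were Lman1l (0.341), Rprm (0.403), 7530428D23Rik (0.462), Nos1 (0.488) and Fgf6 (0.552). The median of all genes was 1.46. Fgf6 was well above background on 7 and 7530428D23Rik on 9 of the 12 arrays. Lman1l was at 1.76 and 2.30, and Nos1, the neuronal nitric oxide synthase, at 2.05 and 2.82 in the genotype comparisons. For Rprm the nearest were Lman1l (0.384), Nos1 (0.398) and Gdf15 itself (0.403). For Cdkn1a they were Polr1e, a subunit of RNA polymerase I (0.253), Mthfd2 (0.281), A730054J21Rik (0.282), Mybpc2 (0.288) and Kif26b (0.294), against a median of 0.740. Among the 10 genes, Cdkn1a lay nearest to Gadd45a (0.440) and farther from Gdf15 (0.888) and Rprm (0.787). The measure weighs the size of a change, so genes with a like genotype difference come out near each other.

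Cell markers moved with the groups as follows. Of 10 cardiomyocyte markers, 8 were below 0 in the genotype difference at both ages, and 1 was called lower for the average. Their medians were −0.07 and −0.13 (all genes −0.00 and −0.10). Of 9 fibroblast markers, 9 and 6 were below 0 at 1 and 2 months, and 0 were called. Of 10 skeletal muscle markers, 2 were called higher at 1 month, 1 at 2 months, and 2 higher and 2 lower for the average. Of 8 smooth muscle and pericyte markers, 1 was called higher at 2 months and 1 for the average. Of 7 endothelial markers, 6 and 5 were below 0 at 1 and 2 months, and 0 were called. Of 6 cartilage markers measured, 6 and 2 were below 0 at 1 and 2 months, with medians of −0.85 and 0.04, and 0 were called. Macrophage markers, of which 12 of 12 were measured, were all above 0 in the genotype difference at both ages, with medians of 0.24 and 0.26 and 1 of the 12 called for the average. Their summed level ran from 33.6 to 38.6 in dflox and from 40.9 to 43.2 in knockout hearts at 1 month, and from 31.0 to 32.2 against 34.7 to 42.2 at 2 months. Airway epithelium markers (11 of 11 measured, 10 with a value in all hearts) summed to between 72.1 and 156 in the 1-month dflox hearts and between 4.88 and 9.09 in the 1-month knockout hearts. At 2 months they were above 150 in dflox replicate 3 and knockout replicates 1 and 3, and between 3.75 and 12.6 in the rest. With the airway score as a covariate the difference at 1 month was 1.67 for Gdf15, 0.76 for Cdkn1a and 1.75 for Rprm. The score was high in every dflox and low in every knockout heart at 1 month. Its slope in this fit came mainly from its wider spread within the 2-month groups. The 1-month values therefore do not separate airway content from receptor genotype. Without the 3 2-month hearts with high airway markers, knockout replicate 2 was the only 2-month knockout heart, beside dflox replicates 1 and 2. The 2-month values were then 3.21, 1.57 and 3.00. Atrial markers (6 of 6 measured, 5 with a value in all hearts) were lowest in knockout 1-month replicate 1, at a sum of 181 against 240 to 387 elsewhere. Without it the 1-month difference was 1.89 for Gdf15, 0.84 for Cdkn1a and 1.59 for Rprm, and Gadd45a still passed (0.87, limma adjusted p = 0.0216). The part of macrophages in these differences was not tested.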

How the data were processed

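Total RNA from 12 hearts was labelled with Cy3 and hybridised to 1-colour Agilent arrays, per the labels' protocols. The authors read them with Agilent Feature Extraction (9.5.3.1 per the file headers, 9.5 per the submitters' processing notes). Scanner files as deposited hold a background-corrected intensity for each spot, unscaled between arrays, and the value table deposited with the series repeats it. Probe positions are on build mm7, per the file headers, and exons and UTRs are not given because that build's annotation was not used here.

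Control and outlier spots were left out. From log2 intensity the 75th percentile of that array's transcript spots was subtracted, and spots of 1 probe were averaged. The filter kept 26979 of 41174 probes, those well above background throughout at least 1 group. The brightest kept probe stood for a gene, which gave 18258 genes. Limma 3.58.1 (R 4.3.3) fitted 4 group means to the 12 arrays. Tests were two-sided, with a call where p, adjusted by Benjamini and Hochberg's method over all genes, was under 0.05. Probe-level fits were adjusted over all kept probes. The labels count mice, so the spread is between animals. The number of hearts limits the precision. The method was tested on simulated data.

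The 10 genes, the pathway and marker lists, and the tests were chosen with earlier results of these data known. Named genes are the 10, the genes of each list called in any comparison and otherwise those with the smallest p up to 4, the 5 genes most alike to Gdf15, Cdkn1a and Rprm, and Nr3c1 and Nr3c2. Ppm1d, Zmat3, Bbc3, Pmaip1, Cdkn1b, Gadd45b, Gadd45g, Rprml, Tgfb1, Gfral, Ret, Atf4, Ddit3, Trib3, Asns and Chac1 were named in addition, after their values were seen, as well-known genes of their lists.

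Alternatives were normexp background correction, median scaling, quantile normalization, other probe filters and summaries, slide or place as a term, an airway score, a replicate block, and leaving out each heart or slide 3. Marker sums and scores use genes with a value in all hearts. Leaving out the 2-month hearts with high airway markers was added after seeing the data. It kept only replicate 2 of the 2-month knockout hearts, so its 2-month, averaged and between-age values rest on that heart.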

Additional observations from a re-analysis of the deposited data

Results flagged for a closer look

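Gadd45a moved with age in opposite ways in the 2 genotypes: every 2-month dflox heart was above every 1-month dflox heart (difference 0.22), and every 2-month knockout heart was below every 1-month knockout heart (−0.24). The difference between these age effects was −0.46 (SE 0.149), and it did not pass limma's test over all genes (adjusted p = 0.934). In neither genotype did the age difference itself pass (adjusted p = 0.379 and 0.396). Groups of 3 hearts are too small for a rule on single outlying hearts.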

How the results depend on the processing

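The signs of Gdf15, Cdkn1a, Rprm and Gadd45a between genotypes held under every alternative run. Gdf15 ranged from 1.45 to 2.40 at 1 month and 2.69 to 3.21 at 2 months, Cdkn1a from 0.61 to 1.16 and 1.37 to 1.97, Rprm from 0.85 to 1.96 and 1.56 to 3.37, and Gadd45a from 0.79 to 1.00 and 0.30 to 0.60. Of 3766 values recomputed, 104 changed sign while passing in neither setting, and no called value changed sign. With 3 hearts per group, small differences of the other 6 genes could not be resolved. No signal was saturated. Median scaling moved the 2-month median of all genes from −0.10 to 0.02.

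Of the 7 tested genes, 1 was called at 1 month and 0 were called with the airway score, with place as a term or without slide 3. For the average, 1 was called and 0 without slide 3. Leaving out 1 heart at a time gave 1 to 1 called genes at 1 month, 0 to 1 at 2 months (1 without knockout replicate 1) and 1 to 2 for the average (2 without knockout 2-month replicate 3, when Sesn2 passed too, adjusted p = 0.0497).

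The count over all genes moved more. At 1 month, 179 genes were called: 37 with the airway score, 111 with median scaling, 91 with no filter, 108 with normexp, 9 with place as a term, 273 without the hearts with high airway markers and 83 to 232 leaving out 1 heart. At 2 months, 422 were called (201 higher): 264 with median scaling (166 higher), 243 with no filter, 248 with normexp (88 higher), 97 with only the groups compared, 111 without slide 3, 19 without the hearts with high airway markers, and 240 to 389 leaving out 1 heart. For the average, 821 were called (411 higher): 535 with median scaling (322 higher), 518 with no filter, 488 with normexp (193 higher), 257 with place, 234 without slide 3, 418 without the hearts with high airway markers and 508 to 802 leaving out 1 heart. For the difference between ages 0 were called, 1 with place and 136 without slide 3. With age, 101 were called in dflox hearts: 6 with the airway score, 17 with no filter, 55 with normexp, 0 with only the groups compared, 28 with place, 10 with slide as a term, 175 with probes above background on all arrays, 26 without slide 3 and 3 to 147 leaving out 1 heart. In knockout hearts 69 were called: 15 with the airway score, 29 with median scaling, 13 with no filter, 34 with normexp, 0 with only the groups compared, 16 with place, 31 with the replicate block, 0 without the hearts with high airway markers and 4 to 62 leaving out 1 heart. Without slide 3, replicate 1 was the only 2-month dflox heart. Without the hearts with high airway markers, replicate 2 was the only 2-month knockout heart. The cause of the changes in these counts was not tested.

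Deviations of same-numbered hearts from their group means correlated from −0.49 to 0.55 between groups. These values vary in sign and do not show whether the numbers pair the mice. With the replicate block, Gadd45a kept its call at 1 month (0.85, limma adjusted p = 0.0137) and for the average (0.62, adjusted p = 0.00378), and 136, 326 and 691 genes were called at 1 month, 2 months and for the average.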
